A study of Sus scrofa with 8 samples.

Results

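The miRNAs miR-423 and miR-339 were examined strand by strand in the porcine corpus luteum, the progesterone-producing gland left by the ovulated follicle. The array entries were chosen by miRNA number, and 5 of the 686 targets were named miR-423 or miR-339: ssc-miR-423-5p, ssc-miR-423-3p, ssc-miR-339-5p, ssc-miR-339-3p and a further entry, ssc-miR-339, whose name gives no arm. They were read by 12 of the 1683 probes and 100 of the 13720 spots on each array. All 5 bore porcine names. Luteal tissue came from crossbred gilts aged 6 to 8 months, either left uninseminated and sampled on day 14 of the estrous cycle (cyclic, 4 gilts' samples) or inseminated 12 and 24 hours after a second estrus was detected and sampled on day 14 of pregnancy (pregnant, 4 samples). All samples were whole luteal tissue from 1 commercial herd, frozen after death, with an RNA integrity number above 8, and each was hybridised to an array of its own in a single colour. The labels do not say whether a sample joined several corpora lutea.

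An miRNA hairpin is cut into a duplex whose strands are named 5p and 3p for the arm they come from. Usually more of one strand is loaded into an Argonaute protein, where its seed, the bases near its 5′ end, pairs with messenger RNAs and lowers their output. Both strands of a hairpin start from a single transcript, so a change in transcription or cutting acts on both, while a change in loading or decay can act on one. miR-423-5p is an abundant miRNA known from plasma, where it has been studied in heart failure, and miR-423 strands are often used to normalise miRNA measurements. miR-339-5p is known to act on the mRNA of MDM2, the ubiquitin ligase that restrains p53. In the RefSeq gene table of the pig assembly Sscrofa11.1, the 1 hairpin named MIR423 lies within the span of NSRP1, with EFCAB5 and SLC6A4 as its neighbours. Of the 2 hairpins named MIR339, MIR339-1 lies within C3H7orf50, next to GPR146, and MIR339-2 within MEGF11, next to RAB11A. The array reads mature strands, so its miR-339 values do not tell these 2 loci apart.

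Signals are given as log2 of the spot intensity after dividing by the array's 75th percentile over targets detected on all arrays; a target counted as detected where at least 0.5 of the spots of any of its probes were well above background. The 212 targets detected on at least 4 of the 8 arrays were tested. That percentile ran from 189 to 316 intensity units, 181 to 223 targets were detected on an array, and negative control spots had medians of 0.437 to 1.29. Slide 3 carried replicates 3 and 4 of each group, whereas slide 1 held pregnant arrays alone (replicates 1 and 2) and slide 2 cyclic arrays alone (replicates 1 and 2). Cyclic replicate 1 stood apart from the other cyclic arrays in several targets, so values without it are given where they bear on a result. Of the 6 entries for miRNAs of the ovary or the gonadotropin response (miR-202, miR-132, miR-212, miR-503 and miR-378), all were detected on at least 1 array, while all 7 entries for liver miR-122 and the muscle miRNAs miR-206, miR-133 and miR-1 were detected on none.

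The first comparison asked how the strands differed between pregnancy and the cycle. Both strands of miR-423 had higher means in pregnancy. With the scaling described above, the miR-339 entries differed by less than 2 SE. The mean of the 3p strand was lower in pregnancy and those of the other 2 entries higher. The miRNAs were picked with this contrast already known, so the differences below are descriptions and no test is attached to them.

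ssc-miR-423-5p read −1.08, −1.86, −1.90 and −1.63 (log2 scaled signal) on cyclic replicates 1 to 4. On pregnant replicates 1 to 4 it read −0.87, −0.96, −0.95 and −0.67. Every pregnant array lay above every cyclic one, with cyclic replicate 1 the nearest to the pregnant group. The means were −1.62 ± 0.38 in the cycle and −0.86 ± 0.14 in pregnancy (SD, n = 4), a log2 difference of 0.76 ± 0.19 (SE), or 1.69-fold. It was detected on all 8 arrays. Its 2 probes gave 0.76 and 0.77, each with the groups apart, and their values over the 8 arrays had r = 0.997; they share the labelled RNA and the target.

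ssc-miR-423-3p, the partner strand, which has been reported to act on the cell cycle inhibitor p21, read −3.63, −4.16, −4.34 and −4.65 on cyclic replicates 1 to 4. It read −3.48, −3.56, −3.86 and −3.42 on pregnant replicates 1 to 4. Cyclic replicate 1 lay inside the pregnant range, so the groups overlapped, and the other 3 cyclic arrays lay below every pregnant array. The difference was 0.61 ± 0.22 (SE, n = 4 per group), or 1.53-fold. It was detected on 3 of 4 cyclic and 4 of 4 pregnant arrays and not on cyclic replicate 3, so that array's value is near the background. Of its 4 probes, 2 were detected on 0 arrays. Another gave 0.53, but was detected on 1 of 4 cyclic and 4 of 4 pregnant arrays and was at the floor on 1 array.

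ssc-miR-339-5p read −2.22, −2.23, −2.04 and −2.35 on cyclic replicates 1 to 4 and −2.04, −1.91, −2.27 and −1.58 on pregnant replicates 1 to 4. The groups overlapped: pregnant replicate 3 was lower than 3 of the 4 cyclic arrays, and pregnant replicate 4 was the highest of all. The means of −2.21 ± 0.13 and −1.95 ± 0.29 (SD, n = 4) differed by 0.26 ± 0.17 (SE). Its second probe gave 0.42. The entry without an arm, ssc-miR-339, ran from −1.99 to −1.68 in the cycle and from −2.05 to −1.42 in pregnancy, a difference of 0.14 ± 0.16 (SE) with overlapping groups. Both entries were detected on all 8 arrays.

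ssc-miR-339-3p, detected on the fewest arrays of the 5 entries, read −4.49, −4.30, −3.83 and −4.33 on cyclic replicates 1 to 4. Pregnant replicates 1 to 4 gave −4.42, −4.13, −4.85 and −4.54, of which the value of replicate 3 is the floor set for weak signals. By either of its probes it was detected on 4 of 4 cyclic arrays but on 2 of 4 pregnant ones. The probe whose values are given was detected on 3 of 4 cyclic arrays, and not on cyclic replicate 1. The groups overlapped. The difference was −0.25 ± 0.20 (SE, n = 4 per group), with −0.34 by the second probe. It became 0.01 when arrays were scaled to the 75th percentile over all probes, a scaling that raised the median of all tested targets by 0.30. Within slide 3, where neither pregnant array was detected, the difference was −0.62.

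**Figure D1:**
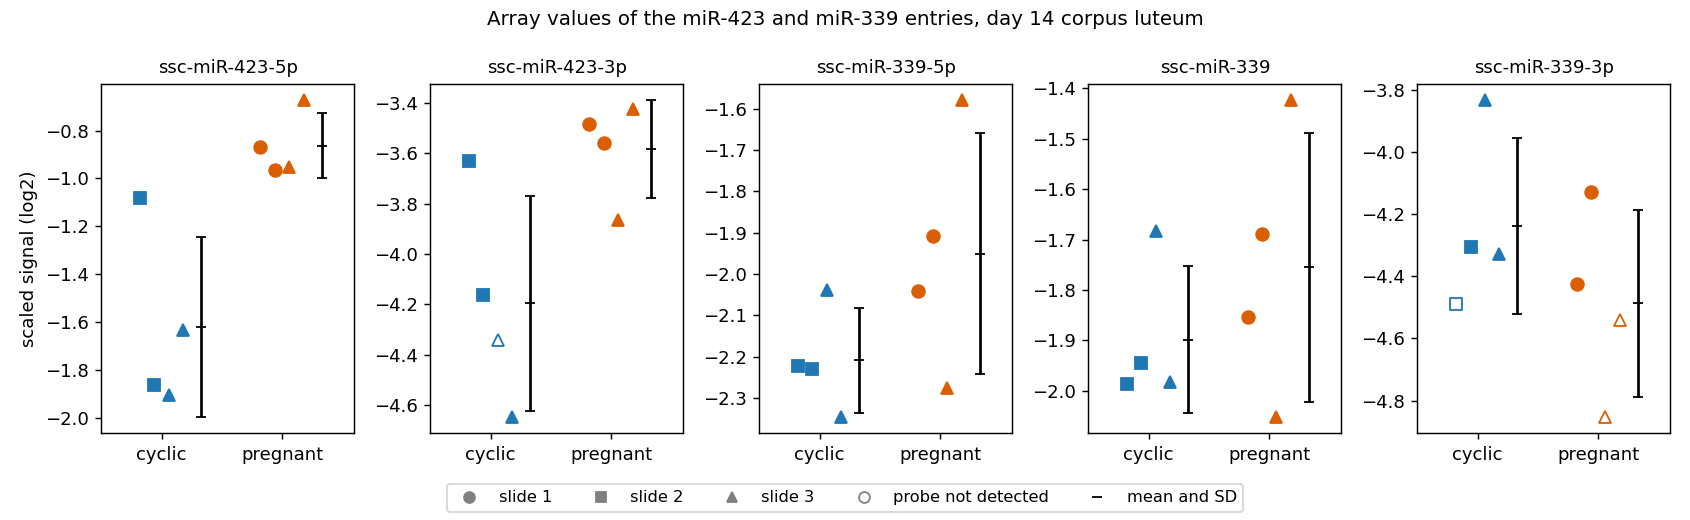
Scaled signal (log2, a separate axis for each entry) of the 5 miR-423 and miR-339 entries on the 4 cyclic (blue) and 4 pregnant (orange) arrays; symbols give the slide, open symbols mark arrays where the plotted probe was not detected, and black bars give the mean and SD. The groups are apart for ssc-miR-423-5p and overlap for the other 4 entries.

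With limma's test and Benjamini-Hochberg adjustment over the 212 tested targets, 24 passed (11.3%). Pregnancy had the higher mean in 11 of these (5.19% of those tested) and the lower mean in 13 (6.13%), and 73 targets had an unadjusted p under 0.05 (34.4%). Of the 5 miR-423 and miR-339 entries, 1 passed, ssc-miR-423-5p. Since the entries were chosen with that outcome known, nothing is read from the count. The groups did not overlap in 36 targets (17%), 21 higher (9.91%) and 15 lower in pregnancy (7.08%), among them ssc-miR-423-5p alone of the 5 entries. In the order of differences from the highest, ssc-miR-423-5p stood at place 7, ssc-miR-423-3p at 16, ssc-miR-339-5p at 53, ssc-miR-339 at 65 and ssc-miR-339-3p at 157 of 212. The median difference of all tested targets was 0.00. The call of ssc-miR-423-5p was not firm: of 24 other settings, 10 called it. When arrays were left out in turn, 1 of the 8 fits did so, that without cyclic replicate 1, where its difference was 0.94 and the number of targets that passed 81. Without each of the other arrays in turn, 7 to 12 targets passed. Of the 24 settings, 2 called ssc-miR-423-3p, that without cyclic replicate 1 and that with scaling over all probes. The latter also called 1 miR-339 entry, among 62 of the 212 targets.

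**Figure D2:**
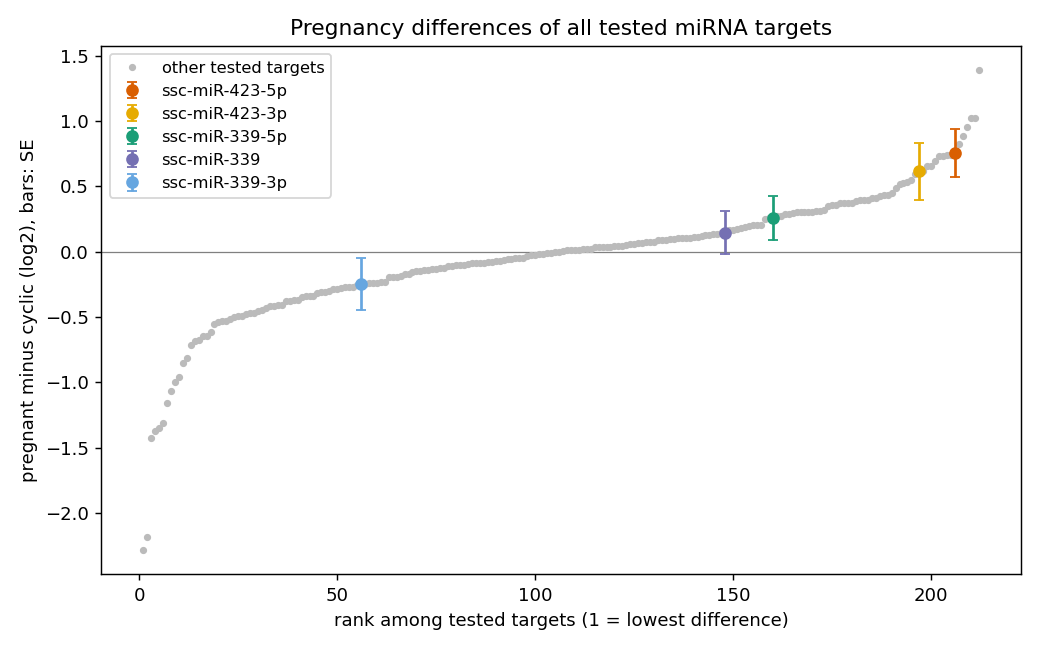
Pregnant minus cyclic difference (log2) of the 212 tested targets in rank order, with the 5 miR-423 and miR-339 entries coloured and their SE drawn as bars. ssc-miR-423-5p (0.76) and ssc-miR-423-3p (0.61) lie in the upper tail, and the miR-339 entries lie between −0.25 and 0.26.

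The processing moved the size of the miR-423-5p difference but not its sign. The difference was positive in all 21 other settings that gave it a value, from 0.46 with normexp background correction to 1.06 with scaling over all probes. Within slide 3, which held 2 arrays of each group, it was 0.96 (−1.77 in the cycle, −0.81 in pregnancy). On scan day 2 alone, which left out slide 1, it was 0.81. For ssc-miR-423-3p the range was 0.15 to 0.91, all positive, the lowest again with normexp, which adds an offset that shrinks dim signals. The ssc-miR-339-5p difference ran from 0.13 to 0.56 and that of ssc-miR-339 from 0.03 to 0.44.

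**Figure D3:**
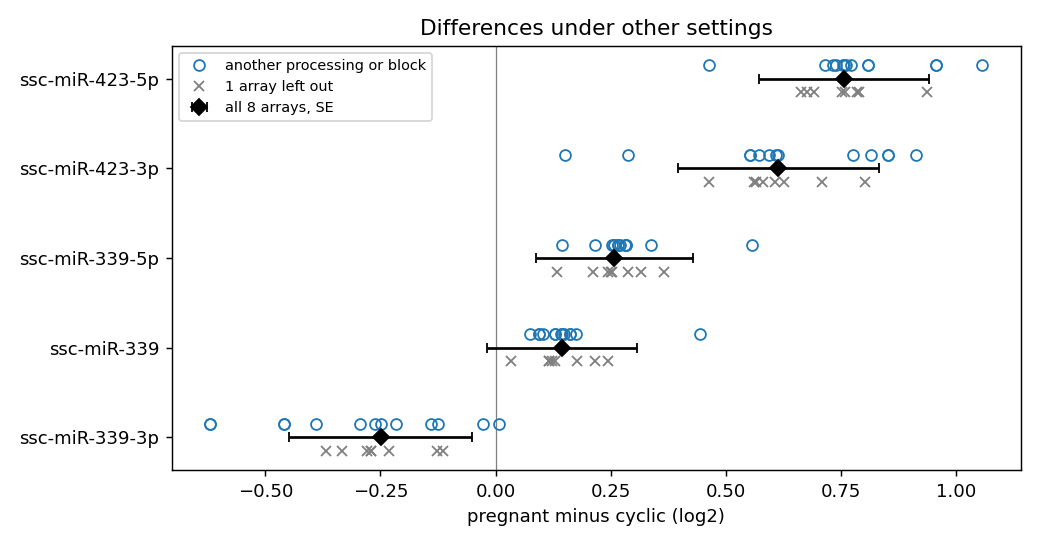
Pregnant minus cyclic difference (log2) of the 5 entries: black diamonds with SE bars for all 8 arrays, open circles for another processing or block, crosses with 1 array left out. The miR-423 strands stay positive in every setting drawn, and ssc-miR-339-3p crosses 0 in 1 of them, to 0.01.

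The second comparison asked whether the strands of a hairpin differed alike. For miR-423 they had similar differences, and for miR-339 the 5p mean was higher and the 3p mean lower in pregnancy. The log2 ratio of miR-423-5p to miR-423-3p was 2.55, 2.30, 2.44 and 3.02 on cyclic replicates 1 to 4 and 2.61, 2.59, 2.91 and 2.75 on the pregnant ones. These values overlapped, and the ratio's difference of 0.14 ± 0.17 (SE, n = 4 per group) was under 1 SE. It was −0.04 under quantile normalization and −0.02 with the authors' value table. The log2 ratio of miR-339-5p to miR-339-3p was 2.27, 2.08, 1.79 and 1.98 in the cycle and 2.38, 2.22, 2.58 and 2.96 in pregnancy. Pregnant replicate 2 lay inside the cyclic range and the other 3 pregnant arrays above it. The difference was 0.51 ± 0.19 (SE), with the 3p strand at the floor on pregnant replicate 3 and below detection on pregnant replicate 4. The 3p probe used was also below detection on cyclic replicate 1. The difference ran from 0.17 with normexp to 0.88 within slide 3. These ratios set one probe against another, so their changes and not their levels can be read.

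On the array, 20 hairpins had both strands tested, and the strands' differences had the same sign in 11. By the size of the gap between the strands, miR-339 ranked 8 and miR-423 12 of the 20, and the median gap was 0.27. The largest gaps belonged to miR-125a (1.55), miR-345 (1.38) and miR-202 (−1.02), written as 5p minus 3p.

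**Figure D4:**
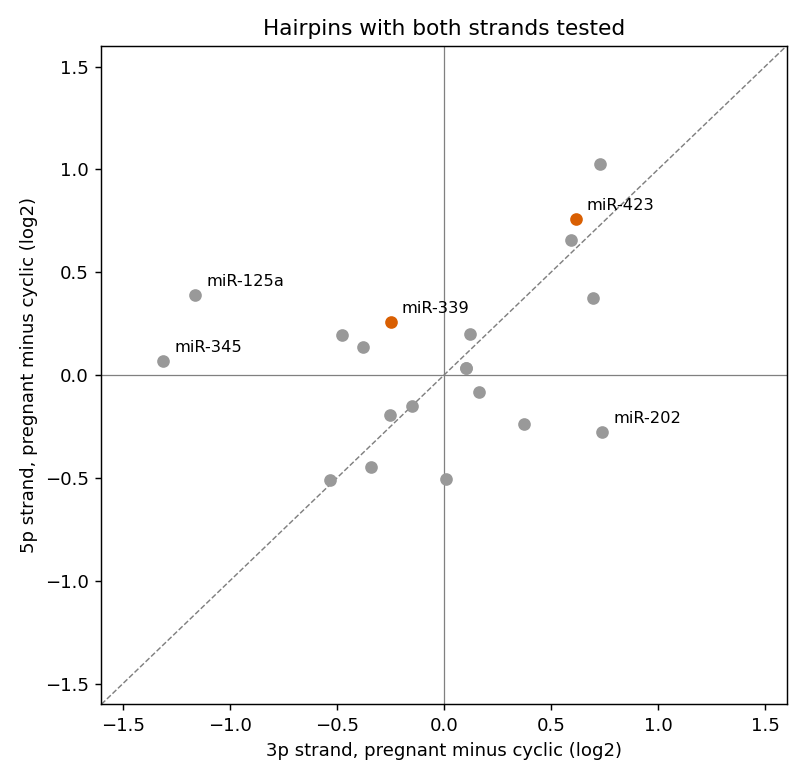
Pregnant minus cyclic difference (log2) of the 5p strand against that of the 3p strand for 20 hairpins with both strands tested; the dashed line marks equal differences. miR-423 lies near the line at 0.61 and 0.76, while miR-339 lies above it at −0.25 and 0.26.

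Whether the strands rose and fell together within a group does not depend on the difference between the groups and was tested over the 8 arrays after removing each group's mean. The strands of miR-423 gave r = 0.70 (exact permutation of arrays within groups, 2-sided p = 0.181, adjusted p = 0.446 over 10 pairs of entries). This value rested on cyclic replicate 1, without which r was −0.06. For the strands of miR-339 r was 0.49 (exact permutation p = 0.267, adjusted p = 0.446). Over the 8 arrays without removing group means, the miR-339 strands had r = 0.13 (exact permutation p = 0.751, adjusted 0.751) and Spearman's rho = 0.19 (exact permutation p = 0.665, adjusted 0.738), and r was −0.24 without the 2 arrays farthest from the median of the 3p strand. No such value is given for miR-423, whose 5p values lay apart by group. With normexp background correction the miR-339 strands reached r = 0.96 (exact permutation, adjusted p = 0.00579), the 1 setting of 15 in which they passed. With that correction ssc-miR-423-3p also passed with ssc-miR-339-5p, ssc-miR-339 and ssc-miR-339-3p, which come from other hairpins (r = 0.94, 0.90 and 0.92, each with an exact permutation adjusted p of 0.00868); without it these r were 0.38, 0.19 and −0.09. As a description, the 20 hairpins had a median r of 0.70 between their strands (middle 50% of hairpins from 0.51 to 0.88), and all pairs of tested targets a median of 0.06.

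The 2 miR-339 entries other than the 3p strand tracked each other most closely. ssc-miR-339 and ssc-miR-339-5p had r = 0.98 with group means removed (exact permutation p = 0.00694, adjusted p = 0.0694), which missed the threshold after adjustment; it passed with normexp, with the authors' value table and with the scanner's total gene signal (exact permutation, adjusted p = 0.00579, 0.0174 and 0.0347). Over the 8 arrays r was 0.96 (exact permutation p = 0.000942, adjusted p = 0.00942) and rho 0.86 (p = 0.0107, adjusted p = 0.0536), and r was 0.93 without the 2 arrays farthest from the median. Whether they read the same RNA is not given by their names, so they are not counted as separate evidence. With group means removed, the lowest adjusted p among the other 9 pairs was 0.446 (exact permutation).

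Within groups, ssc-miR-423-5p varied with a pooled SD of 0.28 and ssc-miR-423-3p of 0.33, against a median of 0.23 over tested targets. From the least to the most variable they ranked 138 and 164 of 212. The cyclic group, in which replicate 1 read highest for both strands, had the wider spread. The SDs in the cycle and in pregnancy were 0.38 and 0.14 for ssc-miR-423-5p, and 0.43 and 0.20 for ssc-miR-423-3p. The miR-339 entries had pooled SDs of 0.22 (ssc-miR-339, rank 84), 0.22 (ssc-miR-339-5p, rank 96) and 0.29 (ssc-miR-339-3p, rank 144). Spots of 1 probe on 1 array agreed better where the signal was bright: the median coefficient of variation was 6.13% for the ssc-miR-423-5p probe used (51.7 to 156 intensity units) and 15.8% for that of ssc-miR-423-3p (9.53 to 24.6 units).

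Since miR-423 is often used as a reference, its strands were also set against other miRNAs used that way (let-7a, miR-16, miR-25, miR-26a, miR-93, miR-103, miR-107, miR-151, miR-186, miR-191, miR-221, miR-320, miR-361, miR-425 and miR-484). Of the 24 array entries matched by these names, 14 were tested. The match left out hsa-miR-320a, hsa-miR-320b and hsa-miR-320c, whose differences were 0.35 (limma, unadjusted p = 0.0466), 0.13 and 0.14. In limma's test 0 of the 14 passed after Benjamini-Hochberg adjustment, and 2 had an unadjusted p under 0.05, both higher in pregnancy. Of all 212 tested targets, 24 passed (11.3%) and 73 had an unadjusted p under 0.05 (34.4%). The differences of the 14 ran from −0.05 to 0.52 with a median of 0.24, against 0.00 over all tested targets. Of the 14, 12 were positive. The 4 with the highest mean signal were let-7a (0.27), miR-26a (0.04), miR-16 (−0.05) and miR-107 (0.29). Without cyclic replicate 1, 5 of the 14 passed, beside 81 of all 212 tested targets. With scaling over all probes 6 of the 14 passed, beside 62 of the 212, and the median of all targets had shifted by 0.30. Nothing particular to the panel is read from these counts.

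Relative to the mean of these 14 entries on the same array, ssc-miR-423-5p read −0.84, −1.40, −1.36 and −1.23 (log2) on cyclic replicates 1 to 4. In pregnancy it read −0.72, −0.72, −0.61 and −0.54. The groups did not overlap, and their means differed by 0.56 ± 0.14 (SE, n = 4 per group). For ssc-miR-423-3p this relative difference was 0.42 ± 0.19, for ssc-miR-339-5p 0.06 ± 0.16, for ssc-miR-339 −0.05 ± 0.16 and for ssc-miR-339-3p −0.44 ± 0.24, with overlapping groups in all 4. Such a ratio shows that miR-423-5p and the panel differed by unequal amounts, not that the panel was constant.

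The targets whose 8 array values were most like those of ssc-miR-423-5p were ssc-miR-424-3p (Pearson's r = 0.96), hsa-let-7b-5p (0.96) and ssc-miR-31 (0.95). These values include the difference between the groups, by which miR-423-5p was chosen. With group means removed they were 0.86, 0.88 and 0.87, in another order. Each of these targets, like ssc-miR-423-5p, read higher on cyclic replicate 1 than on the other cyclic arrays, so these values lean on that array. Values of r without it were not computed. On cyclic replicate 1 hsa-let-7b-5p read 2.61, inside its pregnant range of 2.48 to 2.86, while the other cyclic arrays gave 1.63 to 1.79. The likeness of ssc-miR-424-3p leans on 3 cyclic arrays at the floor. For ssc-miR-423-3p the nearest were ssc-miR-30d (0.98), ssc-miR-331-3p (0.95) and hsa-miR-129-1-3p (0.94). With group means removed these were 0.96, 0.88 and 0.87, and each of these targets also read highest of the cyclic arrays on replicate 1. The miR-339 entries had other neighbours: ssc-miR-23b (0.89), ssc-miR-497 (0.86) and hsa-miR-484 (0.85) for ssc-miR-339-5p, ssc-miR-874 (0.90), ssc-miR-27b-3p (0.88) and hsa-miR-933 (0.87) for ssc-miR-339, and ssc-miR-664-3p (0.89), ssc-miR-9811-5p (0.87) and ssc-miR-500 (0.87) for ssc-miR-339-3p. With group means removed, the values of these 9 targets lay between 0.78 and 0.92. All these arrays share the scaling, and the median r of an entry with the other targets lay between −0.00 and 0.09.

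Of the cyclic arrays, replicate 1 had the lowest summed leukocyte signal and the highest miR-423-5p, while among the other 3 cyclic arrays the one with the highest summed leukocyte signal, replicate 4, also had the highest miR-423-5p. The neutrophil and monocyte miRNA hsa-miR-223-3p read −3.16 on cyclic replicate 1, the cyclic array with the highest miR-423-5p, and −0.33, −0.02 and 1.74 on cyclic replicates 2 to 4, but −2.84 to −2.65 in pregnancy. The summed scaled signal of the 16 entries for miR-223, miR-142, miR-150, miR-155, miR-146a, miR-146b and miR-342 was 1.21 on cyclic replicate 1, 2.39 to 5.50 on the other cyclic arrays and 1.29 to 1.5 in pregnancy. Of these entries 8 were tested, 1 passed as lower (miR-155-5p, −0.96 ± 0.25, SE) and 0 as higher, and 8 were detected on no array. Over all tested targets 11.3% passed. The differences of the 8 tested entries had a median of −0.22, with 6 negative and 2 positive. Those of miR-342-3p (−0.10), miR-146a-5p (−0.01), miR-150 (0.01) and miR-146b-5p (0.04) were within 1 SE of 0. The part of leukocyte content in the miR-423-5p difference was not tested, and in whole tissue fewer cells of a type and less RNA per cell cannot be told apart.

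**Figure D5:**
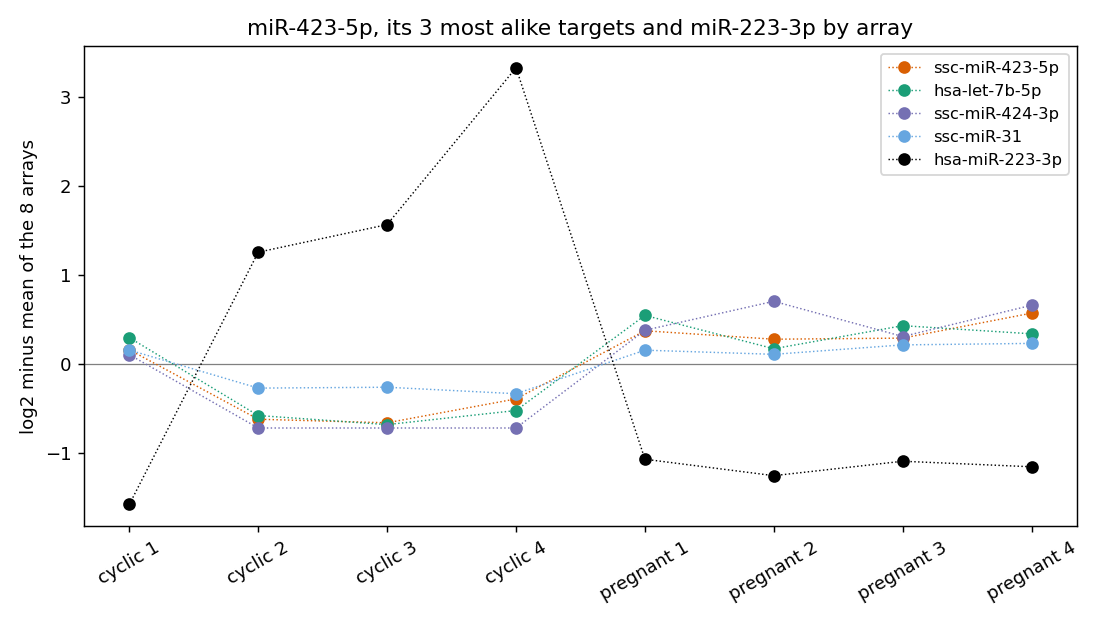
Log2 signal minus the mean of the 8 arrays for ssc-miR-423-5p, the 3 targets most like it and hsa-miR-223-3p, by array; the dotted lines only join the points of a target. On cyclic replicate 1 hsa-miR-223-3p (−3.16 before centring) and hsa-let-7b-5p (2.61) lie near their pregnant values.

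The summed fibroblast signal was also lower on cyclic replicate 1 and in pregnancy than on the other cyclic arrays. The fibroblast entries were those of miR-199a, miR-199b and miR-214, 5 of 6 tested. They summed to 3.61 on cyclic replicate 1, 4.65 to 8.52 on the other cyclic arrays and 3.89 to 4.35 in pregnancy. The median difference over those tested was −0.45, with 4 of the 5 negative and that of miR-214 positive (0.11 ± 0.20, SE). Erythroid entries (miR-451, miR-144 and miR-486, 2 of 4 tested) summed to 1.37 to 7.29 in the cycle and 1.36 to 6.26 in pregnancy, with miR-486 detected on no array. Endothelial (miR-126, 2 tested), smooth muscle (miR-143 and miR-145, 4 tested) and epithelial entries (the miR-200 family, miR-203 and miR-205, 2 of 10 tested) had median differences of 0.04, −0.15 and −0.21. In these 5 lists 0 entries passed limma's test after adjustment and 2 had an unadjusted p under 0.05. Of the 5 tested ovary entries, miR-503 passed as higher and miR-132 as lower. Over all 212 tested targets, 11.3% passed and 34.4% had an unadjusted p under 0.05 in limma's test. Nothing particular to these lists is read from the counts. The part of these cells in the miR-423 and miR-339 values was not tested.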

How the data were processed

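Porcine luteal total RNA (100 ng per sample, labelled with Cy3) was measured on 8 Agilent miRNA arrays. The deposited scanner files hold intensity values, background-subtracted and detrended by Agilent Feature Extraction 10.7.3.1 per the file headers (10.7 per the submitters' processing notes). A value table on a log2 scale, centred per spot, was deposited as well. In it, the deposited columns of cyclic replicates 2 and 4 were treated as a score when units were assigned, since 3 cells above 100, read here as missing, lie outside any log2 range. Array by array, its values had r from 0.965 to 0.987 with the scanner values. Its column medians were −0.000302 to 0.0318, and its scaling between arrays stays unknown. It served as an alternative, in which the miR-423-5p difference was 0.75 ± 0.29 (SE) and did not pass limma's test. For the array values a genome build is not given in the sources used here; hairpin neighbours were read from RefSeq's Sscrofa11.1 gene table.

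Control and outlier spots were left out, spots averaged per probe, and each array divided by its 75th percentile over targets detected on all arrays. Values were floored at 0.0346, the 1st percentile of detected signals (log2 −4.85). The probe with the highest mean stood for a target. Differences are pregnant minus cyclic, fitted with limma 3.58.1 (eBayes with trend) in R 4.3.3, adjusted by Benjamini-Hochberg over 212 targets at 0.05. The labels name biological replicates, and p-values rest on the spread of 4 arrays per group. The fit was tested on simulated data. Figures used Python 3.11.15 and matplotlib 3.10.9.

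Entries, lists and tests were chosen with earlier results of these data known. Named were all entries of miR-423 or miR-339, the 3 targets most like each, the brightest or passing list members and the 3 widest strand gaps; miR-223-3p was named as a bright leukocyte entry. The comparison with the panel mean and the scan day settings were chosen after seeing the data. Alternatives were normexp (offset 50, on median spot and background signals), quantile normalization, scaling over all probes or none, the authors' table, probe means, total gene signal, other filters, porcine targets alone, slide, scan day or replicate blocks, slide 3 alone and each array left out.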

Additional observations from a re-analysis of the deposited data

Results flagged for a closer look

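On cyclic replicate 3 the entry ssc-miR-339 read −1.68, far above the other 3 cyclic arrays for a group of 4. It was the 1 stray value among 10 groups of 4 arrays (5 entries in 2 conditions), and chance alone marks about 5% of such groups.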

How the results depend on the processing

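The number of targets that passed was 24 and became 11 with normexp, 62 with scaling over all probes (55 higher, 7 lower), 9 without scaling, 10 with the scanner's total gene signal, 1 without a detection filter, 9 within slide 3, and 2 both with scan day as a block and within scan day 2. With 1 array left out it ran from 7 to 81. The miR-423-5p difference of 0.76 was 1.06 when all probes set the scale and, with normexp, 0.46. With normexp that of miR-423-3p was 0.15. That of miR-339-5p reached 0.56 ± 0.18 (SE) when all probes set the scale. The miR-339-3p difference was −0.62 ± 0.25 (SE) with slide as a block and −0.62 ± 0.24 within slide 3, which are 1 contrast. The strand gap of miR-423 was 0.48 with the mean of all probes (2 of the miR-423-3p probes were below detection) and that of miR-339 was 0.17 with normexp and 0.88 with slide as a block and within slide 3. The strand correlation of miR-339 was 0.96 with normexp (exact permutation, adjusted p = 0.00579; from 0.00579 to 0.841 over 15 settings), and that of miR-423 ran from −0.063 to 0.90 with 1 array left out. Some pairs of entries from different hairpins, none of which passed before these changes, changed the sign of r. With normexp 3 such pairs passed, those of miR-423-3p with each miR-339 entry (exact permutation, adjusted p = 0.00868). For ssc-miR-339 with miR-423-5p (−0.03), r was 0.43 with normexp, 0.014 with quantile normalization, 0.24 with the all-probe scale, 0.29 without scaling, 0.0024 with probe means and 0.056 with the total gene signal. For miR-339-3p with miR-423-3p (−0.09), it was 0.92 with normexp, 0.12 with probe means and 0.30 with the total gene signal, and for miR-339-3p with miR-423-5p (−0.50) it was 0.45 with normexp. With 1 array left out, r ran from −0.10 to 0.60 for ssc-miR-339 with miR-423-3p, from −0.41 to 0.32 for ssc-miR-339 with miR-423-5p, from −0.45 to 0.43 for miR-339-3p with miR-423-3p and from −0.21 to 0.36 for miR-339-5p with miR-423-5p. The causes were not tested. With the replicate number as a block the miR-423-5p difference was 0.76, and 26 targets passed; the numbers did not pair the arrays (correlations of same-numbered deviations from −0.18 to 0.16, with 2 of 4 arrays best matched by their own number). Low signal limits the 3p strands, which lay below detection on 1 or more arrays.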
